A study of Caenorhabditis elegans with 2 samples.

Results

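Densely clustered binding summits of the nuclear hormone receptor NHR-20 were examined in whole Caenorhabditis elegans L1 larvae. A summit was the point of highest enrichment in a region that the authors kept after their analysis of the irreproducible discovery rate, and it was called clustered when at least 3 other kept summits lay within 5000 bp on the same chromosome. The rule kept 1254 of 6423 summits (19.5%, exact 95% interval 18.6 to 20.5). Clustered summits less than 5000 bp apart were joined, which gave 296 clusters. The reference class was the 2298 isolated summits with no other summit within 5000 bp, and 2871 summits with 1 or 2 others lay between both classes. The positions of the summits in the pooled list chose the members, so all values are given as a description and no test was made. Each share is given with its exact (Clopper-Pearson) 95% interval, which covers counting error only and treats summits as independent, although summits of 1 cluster share a locus.

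The study consists of a single group with 2 biological replicates and has no second group to set it against. Hermaphrodites of strain OP515, genotype unc-119(tm4063) III; wgIs515, carried a transgene that fuses GFP and FLAG to the C-terminus of NHR-20, and both replicates carried it. Larvae were starved at L1 after bleaching and collected 6 hours after synchronization; their age was listed as unknown. Chromatin was sonicated and precipitated with an antibody against GFP. Whole animals were used, so binding in different tissues cannot be told apart, and the promoter that drives the transgene is not given in the sources used here.

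Nuclear hormone receptors are transcription factors with a zinc-finger DNA-binding domain and a ligand-binding domain, and nematodes carry a much larger family of them than insects or vertebrates. Many members bind the site AGGTCA or a relative of it. Genes with large regulatory regions often hold several binding regions in introns and in long upstream DNA, and the same stretch of DNA can be bound by many different transcription factors. A further 6-base site, CACGTG, is a form of the E-box, which basic helix-loop-helix proteins of the MYC, MAX and TFEB type bind.

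The 200 bp around 7 clustered summits are shown first, with and without the E-box, the sequence feature in which clustered and isolated summits differed most among the 6 searched. Sequences are from the WBcel235 (ce11) reference, 5′ to 3′ on the plus strand. Capitals mark every match, on either strand, to any of 6 motifs: the nuclear receptor site AGGTCA, the GATA factor site TGATAA, the E-box CACGTG, the repeat GAGAGA, the AP-1 site TGACTCA and the Sp1-like site CCGCCC. The first 5 sequences hold CACGTG and the last 2 do not. The mxl-3 and mdl-1 summits lie near genes of E-box-binding proteins, the pkg-2 and nhr-19 summits lie in introns, and the last 2 come from strong clusters without an E-box.
mxl-3 upstream summit A, chrX:13353591-13353790, plus strand: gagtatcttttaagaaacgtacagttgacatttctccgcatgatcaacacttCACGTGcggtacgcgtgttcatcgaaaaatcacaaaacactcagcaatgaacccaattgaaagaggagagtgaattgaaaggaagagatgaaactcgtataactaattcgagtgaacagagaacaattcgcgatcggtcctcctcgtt
mxl-3 upstream summit B, chrX:13358669-13358868, plus strand: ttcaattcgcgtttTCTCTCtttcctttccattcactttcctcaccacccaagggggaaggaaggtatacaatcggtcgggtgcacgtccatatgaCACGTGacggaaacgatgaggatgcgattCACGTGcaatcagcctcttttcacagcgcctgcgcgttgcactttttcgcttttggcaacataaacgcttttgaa
mdl-1 downstream summit, chrX:6743909-6744108, plus strand: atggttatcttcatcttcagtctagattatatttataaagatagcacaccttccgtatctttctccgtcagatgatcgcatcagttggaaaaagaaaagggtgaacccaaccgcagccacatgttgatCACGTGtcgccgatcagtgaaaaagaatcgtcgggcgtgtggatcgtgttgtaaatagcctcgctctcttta
pkg-2 intron summit, chrIV:8526174-8526373, plus strand: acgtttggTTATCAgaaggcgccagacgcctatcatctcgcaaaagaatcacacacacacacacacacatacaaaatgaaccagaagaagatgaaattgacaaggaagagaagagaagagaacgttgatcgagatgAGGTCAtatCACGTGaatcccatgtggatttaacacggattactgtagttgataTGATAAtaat
nhr-19 intron summit, chrII:9603526-9603725, plus strand: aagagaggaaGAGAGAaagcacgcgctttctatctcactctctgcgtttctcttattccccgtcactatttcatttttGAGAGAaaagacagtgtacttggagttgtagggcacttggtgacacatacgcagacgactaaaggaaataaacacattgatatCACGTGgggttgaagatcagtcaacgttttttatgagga
nhr-20 upstream summit, chrIII:4237782-4237981, plus strand: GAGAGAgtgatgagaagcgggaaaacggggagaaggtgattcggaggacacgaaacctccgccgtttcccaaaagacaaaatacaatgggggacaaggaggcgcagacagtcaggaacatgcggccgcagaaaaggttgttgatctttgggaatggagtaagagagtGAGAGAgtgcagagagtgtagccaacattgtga
pqn-41 intron summit, chrIII:1925264-1925463, plus strand: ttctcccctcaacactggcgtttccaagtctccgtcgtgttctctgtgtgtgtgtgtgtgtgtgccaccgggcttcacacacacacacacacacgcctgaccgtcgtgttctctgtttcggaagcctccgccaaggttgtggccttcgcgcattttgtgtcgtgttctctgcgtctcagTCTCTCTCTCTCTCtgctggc

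The clusters were mostly small. Of the 296 clusters, 55 held 1 clustered summit whose neighbours did not themselves meet the rule, 50 held 2 or 3, 78 held 4, 103 held 5 to 9 and 10 held 10 or more. The 191 clusters of 4 or more contained 1075 of the clustered summits (85.7%), and the 10 largest contained 135. The number of other summits within 5000 bp reached 14. At the edge of the rule, 561 summits had exactly 3 others and a median signal of 160.0, and 1056 summits had exactly 2 others and a median signal of 173. The median of isolated summits was 166, so clustered summits with exactly 3 others lay below it. Signal is the value that the authors' caller, which is not named in the sources used here, assigned to a region called against the control; it was read as enrichment over the control.

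**Figure D1:**
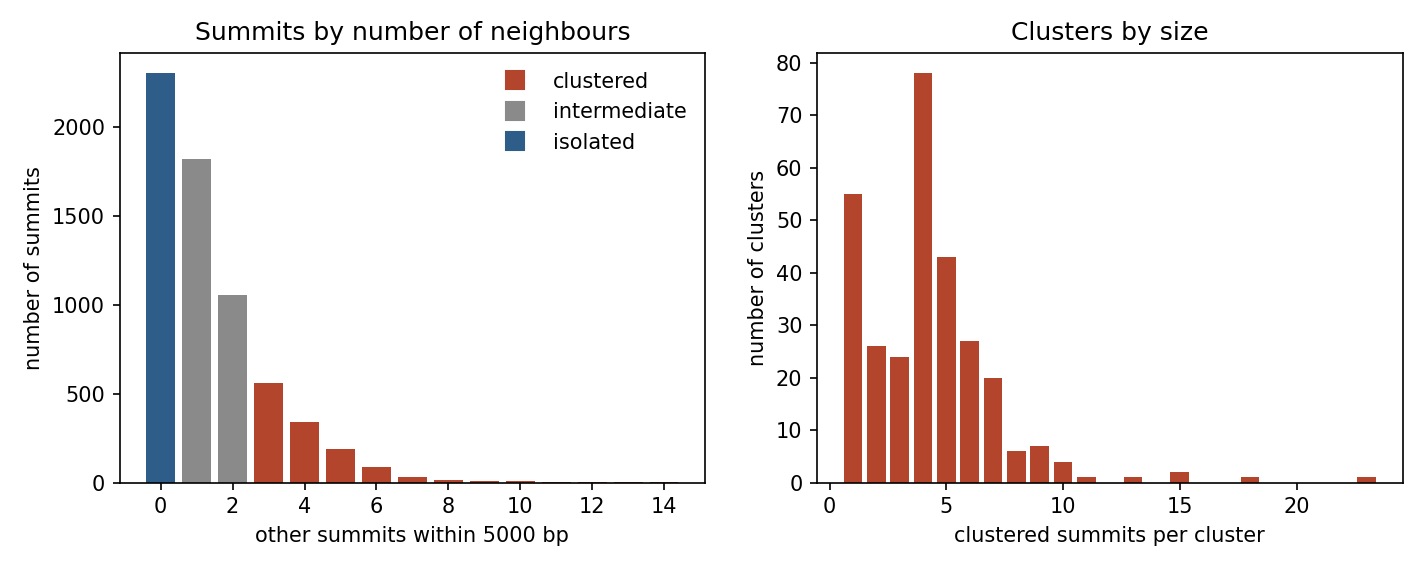
Left, number of summits by the number of other summits within 5000 bp, with isolated summits in blue, summits with 1 or 2 others in grey and clustered summits in red. Right, number of clusters by the number of clustered summits they hold; the most frequent size is 4, with 78 clusters, and the largest cluster holds 23.

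Clusters were short stretches of closely spaced summits. From first to last clustered summit, the 241 clusters of 2 or more spanned a median of 4696 bp (interquartile range 3578 to 6724 bp), and the longest spanned 32691 bp. Together the spans covered 1309 kb, or 1.31% of the 100273 kb of the nuclear chromosomes. Clusters of 4 or more held 9.22 summits per 10 kb, while the chromosomes as a whole held 0.641 per 10 kb. The rule keeps only closely spaced summits, so a higher density in the spans was set by the rule. Neighbouring clustered summits lay a median of 1155.5 bp apart (interquartile range 755.5 to 1782.5 bp), and regions were a median of 396 bp wide. The regions of 102 of 958 neighbouring pairs (10.6%) overlapped, so some neighbouring summits lay in 1 enriched stretch. With 1 summit kept per run of overlapping regions, an alternative added after the data had been seen, 1058 clustered summits in 265 clusters remained under the rule.

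Signal was only slightly higher in the clusters than at isolated summits. The median was 181 (interquartile range 117 to 339.6) at clustered summits and 166 (114 to 269) at isolated summits, a ratio of 1.09, and the ranges overlapped over most of their length. The replicates showed the same order. In replicate 1 the medians were 123 at clustered and 109 at isolated summits, and in replicate 2 they were 67.1 and 57.9. Chromosome I had the reverse order in the pooled list, with medians of 158 at clustered and 168 at isolated summits. On each other chromosome the clustered median was the higher, from 167 and 161 on II to 226 and 170 on IV. Most of the gap lay at the top of the range, where the 90th percentiles were 591 for clustered and 462 for isolated summits. Of the 100 strongest summits of the genome 35 were clustered and 21 isolated, and of the 25 strongest 10 were clustered and 3 isolated. Clustered summits made up 23.7% (21.7 to 25.9) of the 1606 strongest summits and 18.4% (16.6 to 20.4) of the 1606 weakest.

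**Figure D2:**
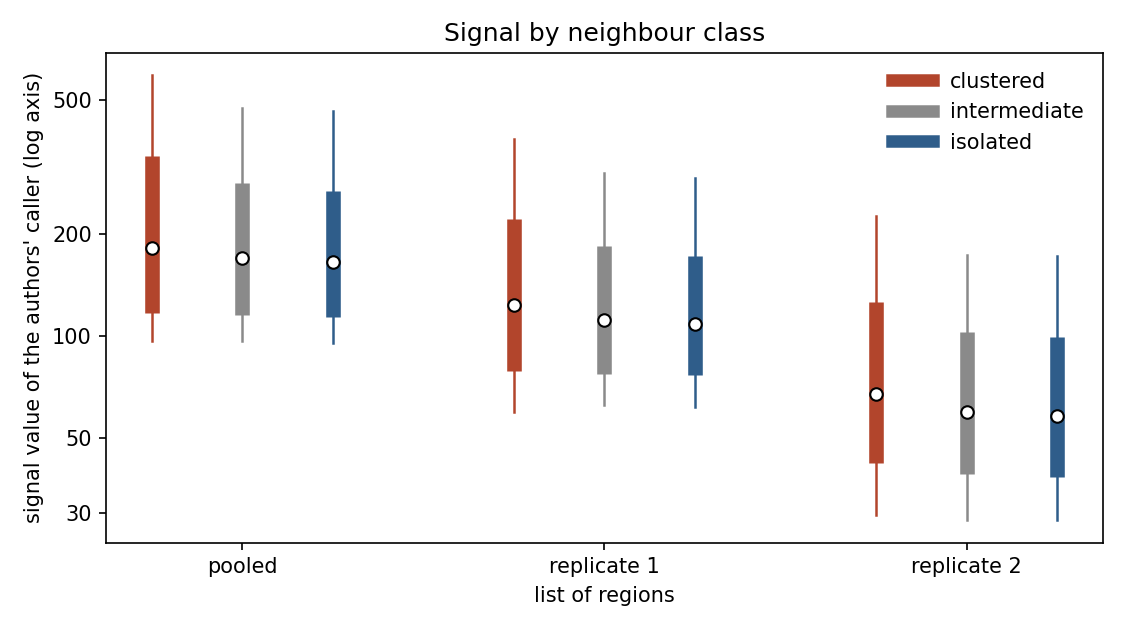
Signal value of the authors' caller on a log axis for clustered (red), intermediate (grey) and isolated (blue) summits in the pooled list and at the matching candidate regions of each replicate. Circles are medians, thick bars span the interquartile range and thin lines the 10th to 90th percentile; clustered summits have the highest median in each list, 181 against 166 for isolated summits in the pooled list, with wide overlap.

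The signal gap depended on where the summits lay. At promoters, taken as 1000 bp upstream to 300 bp downstream of a protein-coding transcript start, the median signal was 192 for clustered and 180.1 for isolated summits. In introns it was 177 and 139, and between genes 179 and 142. Isolated summits were therefore weaker outside promoters than in them by a wider margin than clustered summits were.

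Clustered summits lay at promoters less often than isolated ones. The promoter share was 37.9% (35.2 to 40.6) of clustered, 56.8% (55.0 to 58.6) of intermediate and 65.4% (63.4 to 67.4) of isolated summits. Introns held 23.7% (21.4 to 26.1) of clustered and 11.1% (9.84 to 12.5) of isolated summits, and intergenic DNA 32.1% (29.5 to 34.7) and 20.1% (18.4 to 21.8). The median distance to the nearest transcript start was 1260.5 bp for clustered and 351.5 bp for isolated summits. More than 2000 bp from a start lay 35.4% (32.8 to 38.1) of clustered and 16.3% (14.8 to 17.8) of isolated summits. A promoter window is much shorter than a typical cluster, and the part that the spacing demanded by the rule has in the promoter share was not tested.

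**Figure D3:**
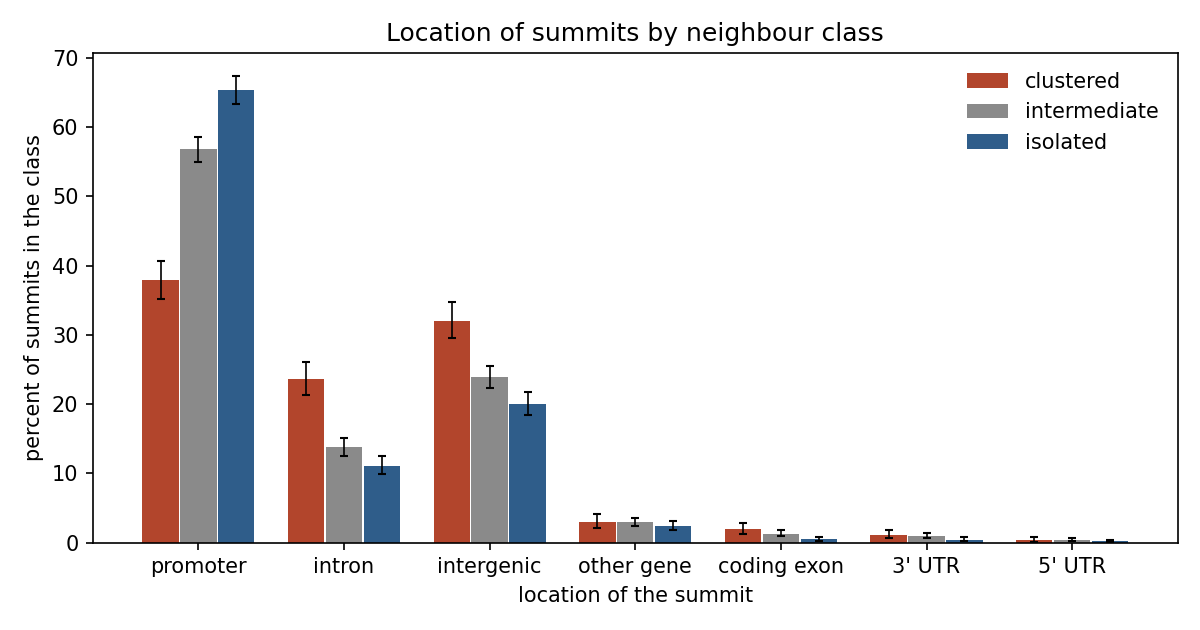
Percent of clustered, intermediate and isolated summits in each location class, with exact 95% intervals as error bars. The promoter share falls from 65.4% of isolated to 37.9% of clustered summits, while the intron share is 11.1% and 23.7%.

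The clusters were spread over all 6 nuclear chromosomes. Chromosome X held 78 clusters, or 4.40 per Mb, and chromosome IV held 35, or 2.00 per Mb. X carried 27.0% (24.6 to 29.6) of clustered and 19.4% (17.8 to 21.0) of isolated summits. On the autosomes, 79.2% (76.5 to 81.8) of clustered summits lay in the central 50% of the chromosome, against 57.8% (55.5 to 60.1) of isolated ones. The central regions of worm autosomes are gene-rich and recombine little.

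The spans overlapped 325 protein-coding genes. Among the 241 clusters of 2 or more, 44 overlapped no protein-coding gene, 120 overlapped 1, 55 overlapped 2 and 22 overlapped 3 or more, with 5 as the highest number. In 41 of them the whole span lay inside a single gene. The strongest summit lay at a promoter in 102 of these clusters, between genes in 80 and in an intron in 49. Summits at promoters and elsewhere were combined in 172 clusters, 25 held promoter summits only and 44 held none.

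Genes with several clustered summits were long and had much upstream DNA. A clustered summit lay in the body or promoter window of 430 of 19973 protein-coding genes, 2.15%, while 23.1% had any kept summit there. The 430 genes had a median length of 2819.5 bp and a median gap of 1727 bp to the next gene upstream. The 110 genes with 3 or more clustered summits had a median length of 8324.5 bp and a median gap of 3155.5 bp. All protein-coding genes had medians of 2027 bp and 937 bp, and genes with isolated summits and no clustered one had 2951 bp and 740.0 bp. By median the 430 genes were thus not longer than the latter, but had wider upstream gaps. The upper quartile of length was 6572.75 bp for the 430 genes and 5555 bp for genes with isolated summits and no clustered one. Long bodies and gaps offer more room for several summits, so median lengths or gaps are given for several of the gene groups. The part of length in the counts was not tested.

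Nuclear receptor genes were the list with most clustered genes. Of 274 nuclear receptor genes, 32 (11.7%, 8.13 to 16.1) carried a clustered summit, beside 2.15% of all protein-coding genes, and 112 carried any summit (40.9%), beside 23.1% of all. The 274 genes had a median length of 2320 bp and a median upstream gap of 1601.5 bp, both above the medians of all genes. nhr-19 and nhr-34 had 7 clustered summits each and nhr-46 had 5. Several of the 32 genes are neighbours on chromosome V and share a cluster, such as nhr-207, nhr-208, nhr-209 and nhr-154, which were picked out after their values were seen.

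The nhr-19 cluster (chromosome II, 9598078 to 9606157) held the second strongest summit of the genome. Its 8 summits had pooled signals from 92.2 to 2554 with a median of 231, from 51.2 to 1676 with a median of 158 in replicate 1, and from 44.5 to 879.6 with a median of 95.1 in replicate 2. A single summit in an nhr-19 intron, 1624 bp downstream of a transcript start and printed above, stood 11.0-fold over the median of its cluster, the highest such ratio among clusters of 4 or more. Across those 191 clusters the strongest summit was a median of 2.47-fold over the cluster's median signal, with 1.08 as the lowest ratio. Both replicates ranked this summit second in the genome.

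The nhr-34 cluster (chromosome IV, 9667549 to 9677817) was more even. Its 9 summits ran from 107 to 806 in the pooled list with a median of 426, from 53.7 to 537 in replicate 1 with a median of 261, and from 36.4 to 319.8 in replicate 2 with a median of 157. Of the 9 summits 5 held CACGTG, and 4 of these were the 4 strongest of the cluster in the pooled list. The nhr-46 cluster (chromosome IV) had 5 summits with signals from 98.9 to 813, of which 3 held CACGTG. There the order was the reverse: the summits with CACGTG were the 3 weakest, at 98.9, 148 and 195, and those of 428 and 813 had none.

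The gene of the tagged receptor itself had no summit in its body or promoter window. A cluster of 5 lay upstream of nhr-20 (WBGene00003619), a minus-strand gene at 4230436 to 4233219 on chromosome III, with pooled signals of 383, 2318, 301, 168 and 87.6 in order along the chromosome. The same summits had values of 257, 1456, 194, 109 and 45.7 in replicate 1 and of 132, 859, 112, 62.7 and 14.2 in replicate 2. The summit 4663 bp upstream of the nhr-20 start was thus far above the other four in each list, and it held 2 GAGAGA matches and no CACGTG. The span of this cluster overlapped 1 protein-coding gene, F43C1.7. The summits of 301, 168 and 87.6 lay nearest to the start of F43C1.7, at 2220, 1381 and 1181 bp from it. The summit of 87.6 lay in the 3' UTR of that gene. The extent of genomic DNA in the transgene is not given in the sources used here, so the part of extra copies in the signals of this cluster was not tested. unc-119, the gene mutated in the strain, had 2 summits and neither was clustered.

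Basic helix-loop-helix genes, to which many E-box-binding proteins belong, formed a short list. The cluster at mxl-3 held 18 clustered summits, and those at hlh-30, hlh-11 and hif-1 held 4, 4 and 5. Clustered summits lay at 4 of 39 genes (10.3%, 2.87 to 24.2), namely hlh-30, hlh-11, hif-1 and mxl-3, and 8 of 39 had any summit. mdl-1, described with mxl-3, also belongs to this family but is not in the list, so the count leaves it out. hlh-30, the worm counterpart of the autophagy regulator TFEB, had 4 clustered summits with signals of up to 404. hlh-11 had 3, of up to 787. hif-1, the hypoxia-inducible factor, had 3 of up to 383, and its cluster held a further summit of 2109. With 39 genes the interval is wide and its lower end lies close to the background of 2.15%.

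The clusters at mxl-3 and mdl-1 were among the largest. mxl-3 encodes a MAX-like protein that represses lysosomal lipase genes in fed worms. Its cluster (chromosome X, 13348594 to 13360862) held 18 summits over 12268 bp, of which 15 were intergenic and 1 lay at the mxl-3 promoter. Pooled signals ran from 93.9 to 1194 with a median of 228, replicate 1 values from 44.0 to 734 with a median of 141, and replicate 2 values from 33.0 to 470.1 with a median of 98.2 over 16 matched summits. Both strong summits printed above lay in the upstream DNA, the first 2887 bp from the mxl-3 start. The nearest start to the second was that of C49F8.15, 3817 bp away. The weakest summit lay 199 bp from the strongest, and both were matched to the same candidate in replicate 2.

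mdl-1 encodes a MAD-like protein, and abts-4 belongs to a family of bicarbonate transporters. Their cluster (chromosome X, 6735740 to 6750323) held 15 summits with the highest summed signal of all clusters, 7427. Pooled signals ran from 91.9 to 1192 with a median of 421, replicate 1 values from 60.6 to 697 with a median of 271, and replicate 2 values from 41.0 to 491 with a median of 166. CACGTG lay at 9 of the 15 summits, and all 15 were also clustered when the rule was applied to each replicate alone.

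**Figure D4:**
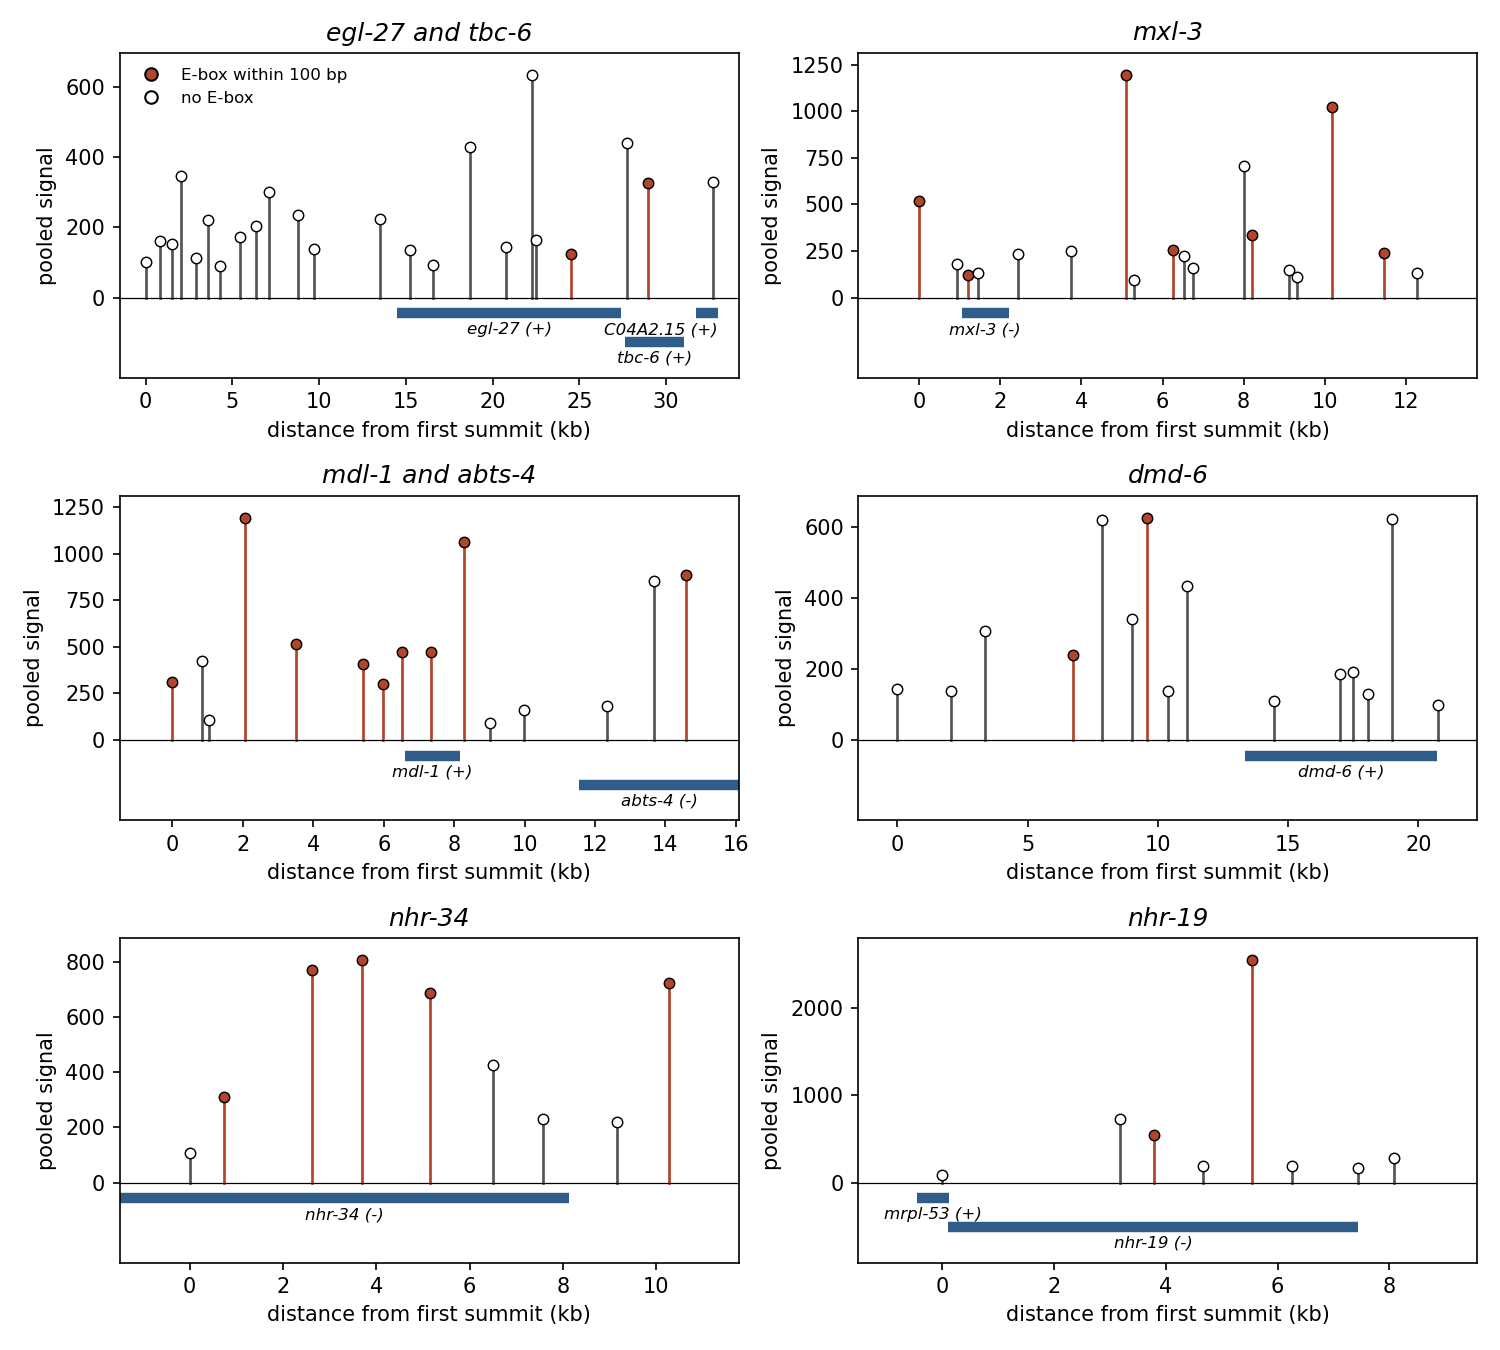
Summits of 6 clusters by distance from the first summit in kb, with the height of each stem giving the pooled signal of the authors' caller on an axis that differs between panels. Red points hold the E-box in the 200 bp around the summit, white points do not, and blue bars are protein-coding gene bodies that the span overlaps, with their strand; 9 of 15 points are red at mdl-1 and abts-4 and 2 of 23 at egl-27 and tbc-6.

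Other transcription factor genes also carried clustered summits, at promoters as well as outside them. Clustered summits lay at 14 of 150 such genes (9.33%, 5.20 to 15.2), whose median length was 3600 bp and median upstream gap 3376.5 bp. sma-9, a Schnurri-type zinc-finger gene of the body-size TGF-β pathway, fkh-7, a forkhead gene, and dmd-6, of the DM-domain family, had 5 each. daf-16, the FOXO factor downstream of the insulin receptor, also had 5. It was the only 1 of 61 genes of the insulin and growth factor list (1.64%, 0.0415 to 8.80) with a clustered summit. That interval includes the 2.15% of all genes. skn-1, the oxidative stress regulator, and mef-2 had 4 each and are named after their values were seen. In the gene body or promoter window, signals reached 887 at sma-9, 794 at fkh-7 and 622 at dmd-6, but 315 at daf-16. The sma-9 cluster held a further summit of 1421, which lay 2941 bp upstream of the sma-9 start.

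The dmd-6 cluster (chromosome IV, 14603264 to 14624030) was the second longest. Its 15 summits had pooled signals from 98.1 to 626 with a median of 192, replicate 1 values from 55.7 to 437 with a median of 143, and replicate 2 values from 16.8 to 243 with a median of 76.7. Intergenic DNA held 10 of them, as far as 13339 bp upstream of dmd-6, where no other protein-coding gene lay in the span. A set of 3 summits of almost equal pooled height, 621, 626 and 622, lay at 5492 and 3749 bp upstream and in an internal promoter window of the gene.

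The largest cluster was at egl-27 and tbc-6. egl-27 encodes a protein related to MTA1, a subunit of nucleosome remodelling and deacetylase complexes, and tbc-6 encodes a TBC-domain protein of the family that acts on Rab GTPases. The cluster (chromosome II, 6820509 to 6853200) held 23 summits over 32691 bp. Pooled signals ran from 90.6 to 633 with a median of 171, replicate 1 values from 50.4 to 416 with a median of 121, and replicate 2 values from 14.0 to 226 with a median of 58.3. The strongest of them ranked 368 in the genome, and the median of the cluster lay below the median of all clustered summits, 181. The upstream gap of egl-27 is 18574 bp, and 8 of the 23 summits lay in the egl-27 body or promoter windows.

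Few genes of the chromatin list had clusters. Of 120 chromatin proteins and cofactors 4 (3.33%, 0.916 to 8.31) had a clustered summit although 62 had some summit, and the interval includes 2.15%. The members were egl-27, pqn-41, din-1 and gei-8. din-1 encodes a corepressor that partners the nuclear receptor DAF-12. pqn-41 encodes a glutamine-rich protein known for its part in the death of the male linker cell, so its place in a chromatin list is doubtful. The list is not complete: let-526, a SWI/SNF subunit gene with 6 clustered summits, zfp-1, the AF10 homologue with 5, and lin-59, an ASH1-type gene in a cluster of 5, are not in it. These 3 were picked out after their values were seen, and the count of the list says nothing of them.

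The pqn-41 cluster (chromosome III, 1921376 to 1926594) was strong at 4 of its 5 summits. Its 5 summits, all in introns, had pooled signals of 1554, 116, 1048, 1634 and 1189 in order along the chromosome. Replicate 1 gave 933, 84.8, 692, 959 and 748, and replicate 2 gave 613, 33.2, 344, 687 and 441. The second summit was the weak one in each list, and the other four were all above the 90th percentile of clustered summits, 591. None held CACGTG, and the 3 strongest held 5, 2 and 7 GAGAGA matches, counted with overlaps.

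Signalling genes gave 1 large cluster. Of 49 Wnt, Notch and TGF-β genes 2 (4.08%, 0.498 to 14.0) had clustered summits. daf-5, which encodes a Sno/Ski protein of the dauer TGF-β pathway, had 9, with signals from 88.3 to 613, replicate 1 values from 59.6 to 370.1 and replicate 2 values from 29.5 to 245. The other was lit-1, a Nemo-like kinase gene, with 3 summits of at most 98.7. Of 65 axon guidance and migration genes, with a median length of 7460.0 bp, 0 had a clustered summit (0 to 5.52%), and of 98 homeobox genes, with an upstream gap of 3031 bp, 0 had one (0 to 3.69%). Any summit was found at 18 of 65 axon guidance genes (27.7%) and 13 of 98 homeobox genes (13.3%). The share was 23.1% of all genes and 40.9% of the receptor list. The intervals for clustered summits in the lists of this paragraph include the 2.15% of all genes.

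In several groups many genes had a summit and a small part of them a clustered one. The same held for all protein-coding genes, of which 4613 had a summit and 430 a clustered one. Of 78 ribosomal protein genes 69 (88.5%) had a summit, yet 4 (5.13%, 1.41 to 12.6) had a clustered one and no gene had more than 1. The interval includes the 2.15% of all protein-coding genes. Translation factor genes had a summit in 28 of 40 cases and a clustered one in 0 (0 to 8.81%). Chaperone and proteasome genes had a clustered summit in 4 of 98 cases (4.08%, 1.12 to 10.1), and 57 had some summit. Detoxification genes had a clustered summit in 2 of 187 cases (1.07%, 0.130 to 3.81) although 77 had some summit. These intervals, and that of the translation factor genes, include 2.15%. Ribosomal protein genes were short, with a median of 755 bp, while the median of the translation factor genes, 2152 bp, was close to that of all genes, 2027 bp.

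The strongest summit of the genome belonged to such a gene. It lay 283 bp upstream of the start of rpl-3, a ribosomal protein gene of the large subunit, with signals of 2711 in the pooled list, 1714 in replicate 1 and 1009 in replicate 2. It had enough neighbours to be clustered, but none of them met the rule, so its cluster held 1 summit. The fifth strongest summit, of 2220 in the pooled list, 1377 in replicate 1 and 846 in replicate 2, lay in the promoter windows of rpl-18A and Y17G9B.5. The other 3 summits of its cluster had signals between 107 and 341.

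Several large gene families were almost without clusters. Of 1310 chemoreceptor genes 1 had clustered summits, srh-2, with 5 of up to 1266. Cuticle collagen and body-shape genes had 0 of 176 (0 to 2.07%) and C-type lectin and F-box A genes 0 of 409 (0 to 0.898%). All 3 shares lay below the 2.15% of all genes. Few genes of these lists had any summit, 36 of 1310 (2.75%), 26 of 176 (14.8%) and 29 of 409 (7.09%), beside 23.1% of all genes.

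The heterochronic genes, which time larval development, had the highest share of the 22 lists, over few genes. Of 14 genes 3 (21.4%, 4.66 to 50.8) had clustered summits, beside 2.15% of all genes, lin-14 with 4, lin-28 with 1 and kin-20 with 1. The 14 genes had a median length of 7424.5 bp and a median upstream gap of 3262 bp, beside 2027 bp and 937 bp for all genes. lin-14 sets first-stage larval fates, and its 4 intronic summits had signals from 106 to 215. Of 129 fatty acid and lipid genes 6 (4.65%, 1.73 to 9.85) had one, among them the stearoyl-CoA desaturase gene fat-6 with 3. Of 76 autophagy and lysosome genes 5 (6.58%, 2.17 to 14.7) had one, with the lower end of the interval close to 2.15%. They included lgg-1 and lgg-2, both homologues of yeast Atg8, with signals of up to 830.0 and 1271. Of 111 neuropeptide genes 5 (4.50%, 1.48 to 10.2) had a clustered summit, and the interval includes 2.15%. Among these 5, nlp-27, nlp-28 and nlp-29 are neighbours at 1 cluster on chromosome V.

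In all, 92 of the 430 genes belonged to at least 1 of the 22 lists, and 338 belonged to none. The lists overlap, and daf-16, lin-14 and hlh-30 were each counted in more than 1. By number of clustered summits cwf-19L2 led with 10, followed by T28B11.1 and daf-5 with 9 and by ZK470.2, pkg-2, egl-27 and ppfr-1 with 8. pkg-2 encodes a cGMP-dependent protein kinase, and its cluster (chromosome IV, 8526274 to 8540431) reaches the ceramide synthase gene hyl-1. Its 10 summits ran from 86.5 to 901 in the pooled list with a median of 348, from 51.3 to 515 in replicate 1 and from 27.5 to 386 in replicate 2. The 8 pkg-2 summits had signals of at least 105 and the 2 hyl-1 summits were 86.5 and 90.6. saeg-1, which was named for its suppression of an activated form of the cGMP-dependent kinase EGL-4, headed another cluster of 10, and 3 of them held CACGTG.

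Noncoding genes also lay in the spans. Of the 296 clusters, 10 held a tRNA gene, 5 a miRNA gene, 5 an snRNA gene and 17 an snoRNA gene. The share of all such genes in the genome, and that at isolated summits, was not computed. These counts therefore cannot be read as many or few. A cluster of 13 summits on chromosome X, between W05H9.4 and got-2.2, overlapped no protein-coding gene at all. Its signals ran from 87.2 to 859 with a median of 128, and its strongest summit lay 7918 bp from the nearest start and held CACGTG.

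The E-box was the motif in which clustered and isolated summits differed most. CACGTG lay in the 200 bp around 225 of 1254 clustered summits (17.9%, 15.9 to 20.2), 11.8% (10.6 to 13.0) of intermediate and 7.79% (6.73 to 8.96) of isolated summits. Of all 501361 windows of 200 bp in the genome 3.32% held it. Windows 500 bp to either side of the summits held it in 4.27% of cases for clustered and 3.83% for isolated summits, so the gap between the classes was much smaller there than at the summits. From 0 to 5 or more other summits within 5000 bp the share was 7.79, 10.5, 14.0, 15.2, 17.7 and 22.6%. In clusters of 10 or more it was 27.4% (20.1 to 35.7).

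The gap was present in the 3 location classes compared. At promoters the share was 14.1% (11.1 to 17.6) of clustered and 6.92% (5.69 to 8.32) of isolated summits. In introns it was 22.2% (17.6 to 27.4) and 11.8% (8.08 to 16.4), and between genes 19.9% (16.1 to 24.1) and 8.03% (5.71 to 10.9). The intervals of clustered and isolated summits did not overlap in any of these 3 classes.

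**Figure D5:**
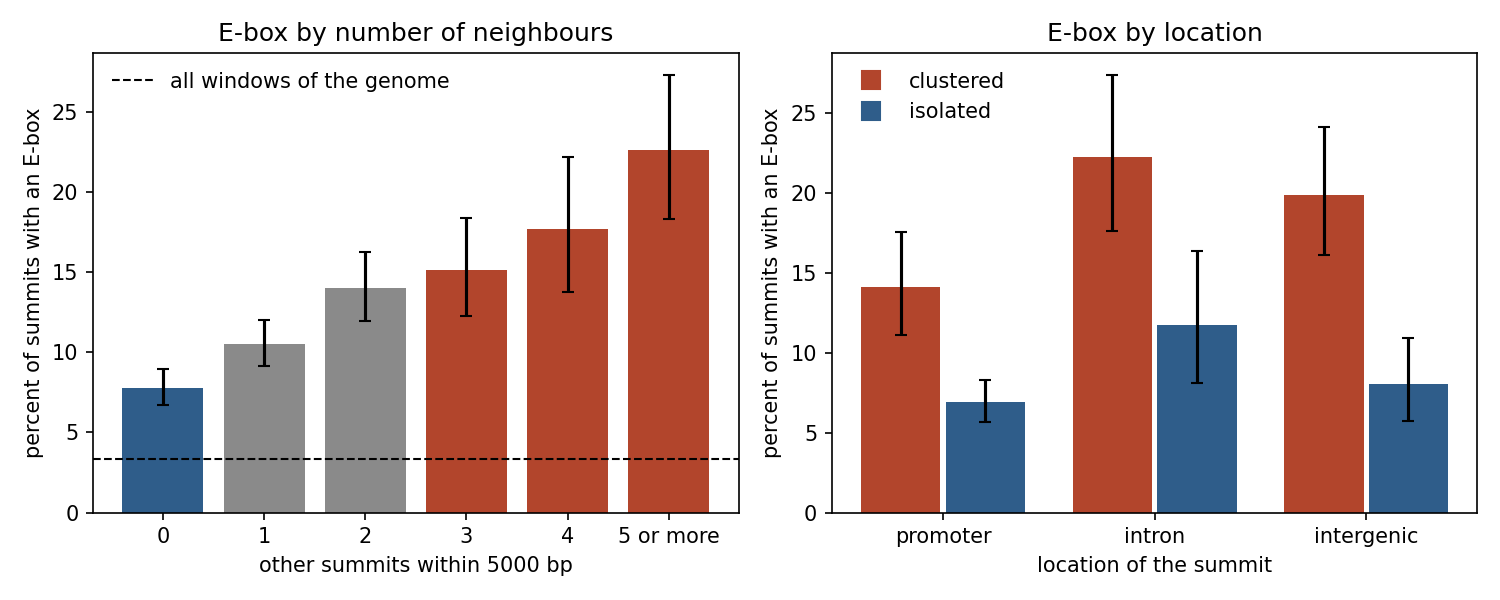
Left, percent of summits with the E-box in the surrounding 200 bp by the number of other summits within 5000 bp, with the share of all genome windows as a dashed line. Right, the same percent for clustered and isolated summits by location; error bars are exact 95% intervals, and the share rises from 7.79% with 0 to 22.6% with 5 or more other summits.

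Clustered summits with an E-box were also the stronger ones. Their median signal was 294, against 167 for clustered summits without it. At isolated summits the medians were 178 with and 164 without. Replicate 1 gave 182 and 114 for clustered and 112 and 108 for isolated summits, and replicate 2 gave 112 and 61.9, and 62.5 and 57.1. The E-box thus went with a large difference in signal inside the clusters and a small one outside them, in both replicates. The centre of the E-box lay a median of 30 bp from the clustered summit, and more than 1 copy was present at 26 clustered and 6 isolated summits.

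The E-box summits were not confined to a few loci. Of the 191 clusters of 4 or more, 108 had at least 1 E-box summit and 59 at least 2. Averaged over all clusters with equal weight, 15.1% of the summits of a cluster held it. Without the mxl-3 and mdl-1 clusters, which were left out after their counts were seen, the share was 17.1% of 1221 summits.

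The other motifs differed little between the classes. GAGAGA lay at 39.2% (36.4 to 41.9) of clustered and 39.9% (37.9 to 41.9) of isolated summits, both far above the 9.95% of genome windows. The receptor site AGGTCA lay at 7.97% (6.54 to 9.61) of clustered and 7.79% (6.73 to 8.96) of isolated summits, and in 4.79% of genome windows. TGATAA was found at 24.5% (22.1 to 27.0) and 20.9% (19.3 to 22.7), CCGCCC at 10.6% (8.96 to 12.4) and 8.40% (7.30 to 9.61), and TGACTCA at 2.31% (1.55 to 3.30) and 2.52% (1.92 to 3.25). The median GC content of the windows was 41% at clustered and 41.5% at isolated summits. A motif match is a run of letters and does not show which protein was bound.

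Most clusters, but not all, were found again in each replicate, and the replicates contributed to the pooled list and are no independent check. Candidate regions within 200 bp were present in both replicates for 1240 of 1254 clustered summits (98.9%, 98.1 to 99.4) and for 98.3% (97.6 to 98.8) of isolated ones. Candidate lists reach far below the threshold, so the same match was made among the 6423 strongest regions of each replicate, where 79.9% (77.6 to 82.1) of clustered and 78.6% (76.9 to 80.3) of isolated summits were present in both. Applied to those regions, the rule gave 1255 clustered summits in 297 clusters in replicate 1 and 1369 in 312 clusters in replicate 2. Of the pooled clustered summits 804 (64.1%) were clustered in both replicates, and 199 of all 296 clusters (67.2%) and 150 of the 191 clusters of 4 or more (78.5%) held at least 1 of them. A clustered summit of replicate 1 matched 84.8% of the 296 clusters, and 1 of replicate 2 matched 78.0%. For single clusters this was counted only at the genes named by the rule given under the processing of the data. Among those described above, no summit was clustered in both replicates at rpl-3, rpl-18A, lit-1 and fat-6.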

How the data were processed

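NHR-20 binding was profiled by ChIP-seq in 2 biological replicates, per the labels. The authors deposited lists of regions on the ce10 and ce11 builds. Per the notes deposited with them, all were called against 1 control alignment. The deposited signal value of each region was read as the authors' enrichment over that control, since no source names the caller, and the deposited −log10 q-value was 4.18 in all 6423 thresholded regions, so it ranks nothing. Which aligner, caller and irreproducible discovery rate were used is not given in the sources used here. The lists hold no read totals, so depth is unknown and signal was compared only within a list.

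Summits (start plus offset) of the pooled ce11 list were classed by neighbours within 5000 bp. The members, the 22 gene lists and the motifs were chosen with earlier results of these data known. Gene models were from Ensembl release 115 and symbols from RefSeq through WormBase identifiers (19965 of 19973 genes matched). Promoters had precedence over UTR, exon, intron and other gene. Replicate values are those of the nearest of 30000 candidate summits within 200 bp, so close summits can share 1 candidate. Named genes were those in the 10 clusters with most summits, the 5 longest, the 5 of highest summed signal and the 5 with the strongest summits, the 5 genes with most clustered summits, 3 per list, and nhr-20 and unc-119. The counting was checked on simulated positions. Python 3.11.15, numpy 2.4.6, pandas 2.3.3, scipy 1.17.1 and matplotlib 3.10.9 were used.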

Additional observations from a re-analysis of the deposited data

How the results depend on the processing

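Over the genome as a whole, the median signal stayed higher at clustered than at isolated summits in each alternative that gave both. The ratio of median signal stayed between 1.03 and 1.25. In each alternative that gave both E-box shares, the share was higher in clustered than in isolated summits. The promoter share of isolated summits was not computed under the alternatives, so the direction of that comparison was not checked there. The counts follow the definition of a cluster. Neighbour windows of 3000 and 10000 bp gave 178 and 743 clusters of 630 and 2440 clustered summits, overlapping 131 and 773 genes, with median spans of 2484.5 and 2616 bp, signal ratios of 1.15 and 1.03, promoter shares of 34.8 and 44.8% and E-box shares of 21.0 and 15.5%. The 10000 bp window left 1268 isolated summits. At least 2 or at least 4 other summits gave 612 and 150 clusters of 2310 and 693 summits, overlapping 704 and 152 genes, with spans of 3909.5 and 4435 bp and promoter shares of 43.5 and 34.3%. With at least 4 the ratio was 1.23 and the E-box share 20.2%. The stronger 50% of the list by signal gave 71 clusters of 268 summits and 60 genes, a span of 3890.0 bp, a ratio of 1.25, a promoter share of 31.7% and E-box shares of 25.7% clustered and 9.68% isolated. The median span of all 296 clusters, 4274.5 bp, became 4229 bp with 1 summit per interval, 1547.5 bp with a joining distance of 2500 bp and 4696 bp over clusters of 2 or more. Leaving out replicate 1 or replicate 2 gave spans of 4230 to 4291 bp, 297 to 312 clusters of 1255 to 1369 summits and signal ratios of 1.07 to 1.14. A promoter window of 500 bp upstream to 100 bp downstream gave a promoter share of 26.2%, and spans extended by 1000 bp overlapped 512 genes. E-box windows of 100 and 400 bp gave 12.7 and 22.0% of clustered and 5.22 and 11.0% of isolated summits. Matching within 100 and 500 bp found 95.5 and 99.8% of clustered summits in both replicates. E-box alternatives, clusters of 2 or more and 1 summit per run of overlapping regions were added after the data had been seen. No paired analysis was possible because the study holds 1 group. Depth is unknown, so what it limits could not be given.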

Other observations

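The 5 clusters that hold a miRNA gene were looked up after the other values had been seen. They hold mir-79, mir-71, mir-2211, mir-230 and a group that includes mir-54, mir-55 and mir-56. The cluster with mir-71 lies inside ppfr-1, which encodes a regulatory subunit of protein phosphatase 4, with 8 intronic summits and a strongest signal of 589. The cluster with mir-2211 overlaps no protein-coding gene, and its 4 summits had signals from 87.0 to 256. The cluster with mir-54 to mir-56 has 5 summits at F09A5.3, of which the strongest had a signal of 934 and stood 5.36-fold over the median of the cluster. No test was made of these 5 loci.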
